A study of Homo sapiens with 2 samples.

Results

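The glutathione S-transferases examined here are 10 genes of the family, GSTM2, GSTM3, GSTM4, GSTP1, GSTA4, GSTO1, GSTO2, GSTK1, MGST1 and MGST3. They were chosen by symbol, and every transcript cluster (the gene-level unit of the Affymetrix Human Transcriptome Array 2.0) annotated to such a symbol alone was taken. This gave 12 clusters of 67528, since MGST1 and MGST3 have 2 each, and 10 of 22407 named genes. Total RNA of a cetuximab-resistant FaDu line was hybridised to 1 array and total RNA of the untreated parental FaDu line to 1 array. FaDu is an established human squamous carcinoma line of the head and neck, and cetuximab is an antibody against the epidermal growth factor receptor. The sources used here do not say how resistance was obtained, at which cetuximab dose, whether the resistant line is a clone or whether the drug was present at harvest. With no replicate of either line, each difference is a size between 2 arrays that carries no error across cultures and no test. Line, passage and array cannot be told apart. That the resistant culture derives from FaDu rests on its label alone, so each difference is between the cultures so labelled.

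Glutathione S-transferases join the thiol of the tripeptide glutathione to electrophilic compounds, which are then pumped out of the cell and trimmed to mercapturic acids. Soluble transferases fall into classes named by Greek letters, the kappa class sits in mitochondria and peroxisomes, and the microsomal enzymes are membrane proteins of a separate evolutionary family. Many of these genes are known targets of the transcription factor NRF2, which binds antioxidant response elements, and the pi-class enzyme is known for its abundance in squamous and other carcinomas.

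Values are the authors' deposited log2 expression values, and a difference is the resistant value minus the parental value, so that 1 log2 unit is 2-fold. The background level was the 95th percentile of 364 olfactory receptor genes, 5.03 on the resistant array and 5.09 on the parental array. For a gene under this level on 1 array, the fold was computed from the background level and is a lower bound ("at least"). No fold is given for a gene under it on both. Levels of different genes are not compared, because each cluster has its own probes.

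Of the 10 members, 9 lay above background on at least 1 array. Among these 9, GSTM3, GSTK1 and MGST1 were at least 2-fold higher in the resistant line, and GSTO2 was at least 2-fold lower. Over all 13699 genes above background on either array, 13.6% passed the 2-fold limit upwards and 12.0% passed it downwards. The members' share of lower genes, 11.1%, lay near that background, and their share of higher genes, 33.3%, lay above it, over 9 genes and with no test. GSTM3 and GSTM2 entered this count through the resistant array alone, which favours a positive difference. The nearest members short of 2-fold were GSTP1, with a difference of -0.97, and GSTM4, with 0.86. The median difference of all 10 members was 0.24 log2 units, beside -0.01 over all named genes.

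**Figure D1:**
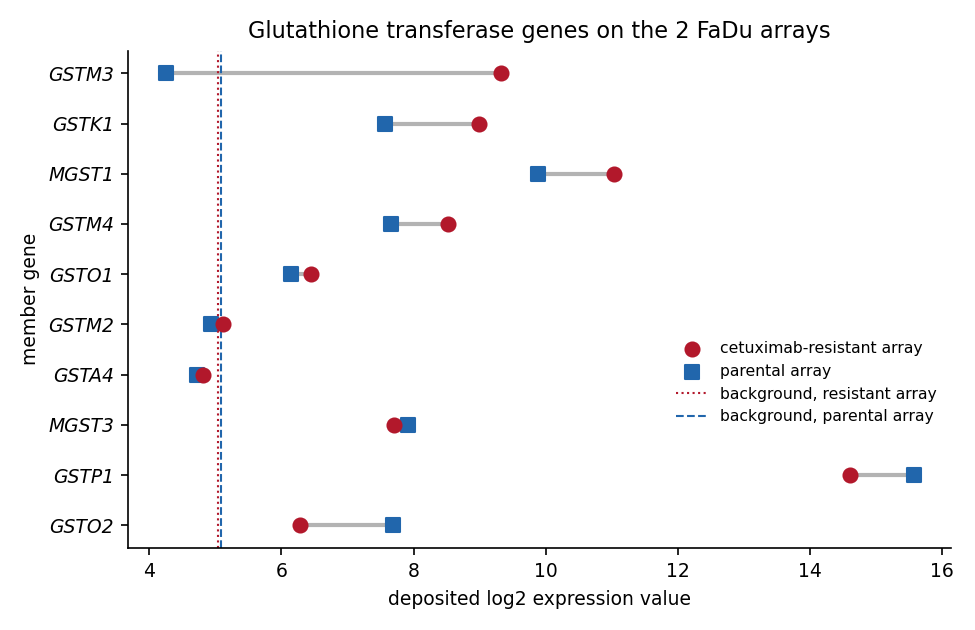
Deposited log2 expression values (horizontal axis) of the 10 member genes (vertical axis) on the cetuximab-resistant array (red circles) and the parental array (blue squares), ordered by difference, with the background level of each array as a vertical line. GSTM3 lies at 9.33 in the resistant line and below background in the parental line, GSTP1 lies at 14.60 in the resistant line and 15.57 in the parental line, and GSTO2 has the most negative difference of the members, -1.41.

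GSTM3 had by far the largest difference. This mu-class enzyme is best known from testis and brain. Its log2 value was 9.33 in the resistant line and 4.25 in the parental line, where it lay below background, so it was at least 19.0-fold higher. In RNA from a whole culture, fewer cells with a transcript and less of it per cell cannot be told apart. The deposited values differ by 5.08 log2 units, and by 4.25 with the parental value raised to background. The other mu-class members lie beside it in 1 cluster on chromosome 1 and differed far less. GSTM4, a mu-class enzyme of broad tissue distribution, had a log2 value of 8.52 in the resistant line and 7.66 in the parental line, 1.82-fold higher and short of the 2-fold limit. GSTM2, first described from muscle, had 5.12 in the resistant line and 4.94 in the parental line. The GSTM2 values lie next to the background levels, above on the resistant array and below on the parental array, and do not separate the lines. All 5 mu-class genes measured, GSTM1 and GSTM5 included, had positive differences, from 0.18 to 5.08. Those of GSTM1 (0.42), GSTM5 (0.28) and GSTM2 (0.18) did not exceed the SD of the olfactory receptor differences, 0.42. GSTM5 lay below background on both arrays. Mu-class genes are also similar in sequence and their probes may share signal. The small positive differences of GSTM1, GSTM2 and GSTM5 beside GSTM3 are therefore uncertain and set no direction for the class.

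The promoter windows of the mu-class members are shown because GSTM3, which stood apart in expression, also differs in base composition from the GSTM4 and GSTM2 windows. Windows of GSTM1 and GSTM5, which lie nearer to GSTM3, were not compared. Each window runs from 250 bases before to 50 bases after the transcription start of the gene in RefSeq (build GRCh38.p14), 5′ to 3′ on the gene's strand, with CpG dinucleotides in capitals. CpG is the site at which cytosine is methylated in human DNA, and CpG-rich promoters are typical of broadly expressed genes.
GSTM4, chr1:109655849-109656148, plus strand: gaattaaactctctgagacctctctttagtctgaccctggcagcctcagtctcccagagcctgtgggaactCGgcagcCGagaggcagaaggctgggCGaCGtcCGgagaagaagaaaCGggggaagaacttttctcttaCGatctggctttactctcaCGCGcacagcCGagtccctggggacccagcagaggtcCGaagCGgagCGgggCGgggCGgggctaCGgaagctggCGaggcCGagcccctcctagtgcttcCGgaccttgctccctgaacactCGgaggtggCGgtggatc
GSTM2, chr1:109667807-109668106, plus strand: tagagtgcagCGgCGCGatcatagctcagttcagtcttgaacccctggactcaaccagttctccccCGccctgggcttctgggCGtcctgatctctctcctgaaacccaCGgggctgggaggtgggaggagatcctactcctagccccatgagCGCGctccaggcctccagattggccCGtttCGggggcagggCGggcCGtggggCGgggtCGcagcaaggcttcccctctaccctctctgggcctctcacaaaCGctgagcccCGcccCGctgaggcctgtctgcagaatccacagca
GSTM3, chr1:109740989-109741288, minus strand: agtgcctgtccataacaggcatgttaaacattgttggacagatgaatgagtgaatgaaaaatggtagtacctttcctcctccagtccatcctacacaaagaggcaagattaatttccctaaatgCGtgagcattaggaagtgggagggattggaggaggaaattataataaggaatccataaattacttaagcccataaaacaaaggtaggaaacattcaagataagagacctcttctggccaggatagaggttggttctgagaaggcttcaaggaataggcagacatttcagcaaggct
The GSTM3 window holds 1 CpG and 41.3% G and C bases. The GSTM4 window holds 21 CpG and 62.3% G and C, and the GSTM2 window 17 CpG and 65.3%. Over all 35116 windows of this length in the table the median was 14 CpG, and 11.0% of windows held as few as GSTM3. GSTM3 also lacks the GC-box motif GGGCGG on either strand, of which GSTM4 has 2 and GSTM2 has 4 matches. This motif is present in 15786 of the 35116 windows. DNA methylation was not measured, and no link between base composition and expression was tested. Each of these genes has 1 listed start, and windows at other starts were not examined. The choice of start matters: the windows at the 3 listed starts of MGST1 hold 4, 18 and 19 CpG.

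GSTP1, the only pi-class gene, was bright on both arrays, at 14.60 in the resistant line and 15.57 in the parental line. It was thus 1.96-fold lower in the resistant line, and 12.4% of genes above background had a difference as low or lower. The call depends on scaling: its difference of -0.97 became -1.03 after a loess correction and also reached 2-fold after centring of each array on its median, but became -0.90 after quantile normalisation. At such bright values an array can lose proportionality between RNA and signal, and the size of that effect was not tested.

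GSTP1 is the classical example of a transferase gene with an antioxidant response element, so all member windows were searched on both strands for the core of that element, TGACNNNGC. Matches lay in windows of 4 of the 10 members, and 13.3% of all windows hold one. Members with several listed starts (3 for MGST1, 2 for GSTO2) had more than 1 window searched. The 4 windows with a match are shown with the match in capitals, in the same layout and build as above.
GSTP1, chr11:67583562-67583861, plus strand: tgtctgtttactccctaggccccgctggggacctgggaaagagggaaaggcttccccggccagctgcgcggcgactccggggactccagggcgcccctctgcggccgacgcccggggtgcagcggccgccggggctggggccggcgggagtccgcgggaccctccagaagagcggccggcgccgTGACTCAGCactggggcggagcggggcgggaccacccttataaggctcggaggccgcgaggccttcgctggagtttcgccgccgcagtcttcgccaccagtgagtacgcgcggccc
GSTO1, chr10:104254642-104254941, plus strand: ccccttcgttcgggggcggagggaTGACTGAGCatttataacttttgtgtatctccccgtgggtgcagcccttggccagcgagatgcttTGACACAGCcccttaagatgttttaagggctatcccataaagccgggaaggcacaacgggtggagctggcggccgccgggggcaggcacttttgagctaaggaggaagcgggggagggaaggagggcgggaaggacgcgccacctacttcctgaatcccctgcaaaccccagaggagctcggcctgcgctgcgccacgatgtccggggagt
MGST1, chr12:16346865-16347164, plus strand: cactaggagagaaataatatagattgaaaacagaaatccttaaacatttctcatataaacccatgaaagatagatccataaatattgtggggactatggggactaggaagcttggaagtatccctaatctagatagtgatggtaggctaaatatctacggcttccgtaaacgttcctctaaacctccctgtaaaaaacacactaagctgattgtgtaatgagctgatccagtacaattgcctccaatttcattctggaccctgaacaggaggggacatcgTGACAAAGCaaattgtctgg
GSTA4, chr6:52995235-52995534, minus strand: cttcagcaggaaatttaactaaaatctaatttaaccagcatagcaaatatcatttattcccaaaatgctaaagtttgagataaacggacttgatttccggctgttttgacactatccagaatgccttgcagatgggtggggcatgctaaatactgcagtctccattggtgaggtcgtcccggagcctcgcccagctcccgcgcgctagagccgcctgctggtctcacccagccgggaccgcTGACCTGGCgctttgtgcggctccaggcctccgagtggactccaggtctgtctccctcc
In GSTP1 the match TGACTCAGC begins 66 bases before the start and overlaps a match to TGANTCA, the motif of the AP-1 factors FOS and JUN. This motif reads the same on both strands and is present in 7.71% of all windows and in no other member window. GSTO1 has 2 matches, which begin 226 and 161 bases before the start. The match of MGST1 begins 30 bases after the most upstream of its 3 listed starts, and that of GSTA4 begins 9 bases before the start. Expression of these 4 genes did not run one way: in the resistant line MGST1 was higher, GSTP1 lower but short of 2-fold, GSTO1 differed by 0.30 log2 units and GSTA4 stayed below background. The windows of GSTM3 and GSTK1, both at least 2-fold higher, and of GSTO2, at least 2-fold lower, hold no match. A match is a description of letters in a 300-base window, and more distant elements were not searched.

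**Figure D2:**
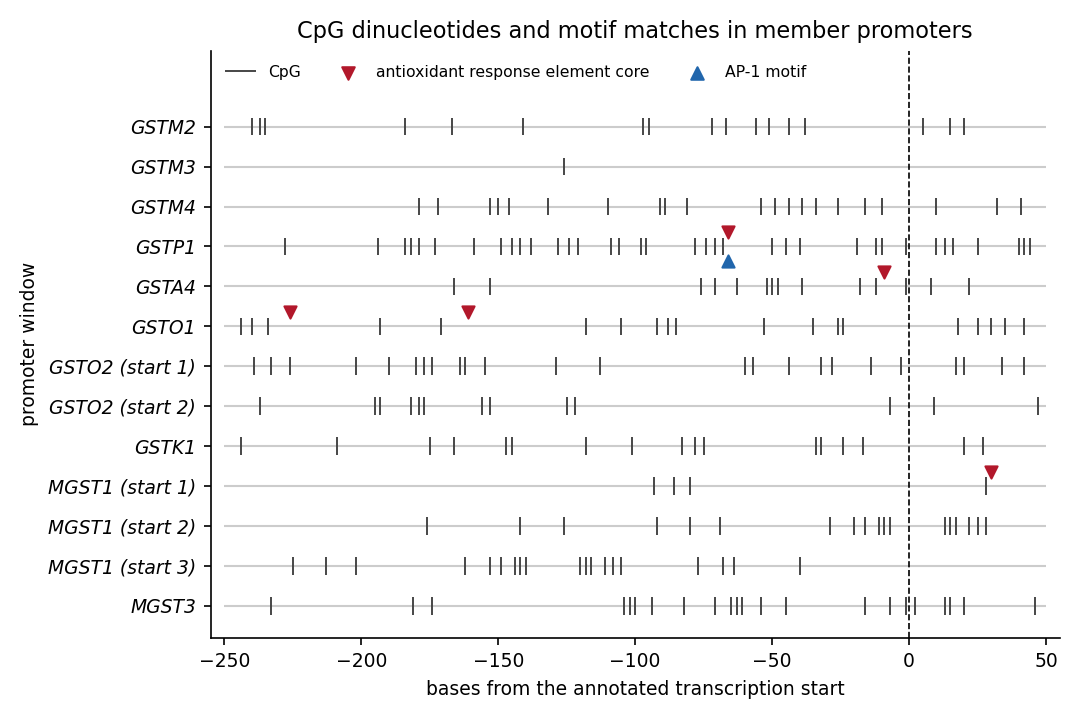
Positions of CpG dinucleotides (grey ticks), matches to the antioxidant response element core (red triangles) and matches to the AP-1 motif (blue triangle) in the 13 promoter windows of the members, with bases from the annotated start on the horizontal axis. GSTM3 has 1 CpG where GSTP1 has 36, and the response element core occurs in GSTP1, GSTO1, GSTA4 and 1 of the 3 MGST1 windows.

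The omega-class genes GSTO1 and GSTO2 are neighbours on chromosome 10 and behaved differently. Omega enzymes act as thioltransferases and dehydroascorbate reductases and conjugate few of the classical substrates. GSTO2 had a log2 value of 6.28 in the resistant line and 7.69 in the parental line, 2.66-fold lower, and 6.69% of genes above background were as low or lower by difference. GSTO1 had 6.45 in the resistant line and 6.15 in the parental line, a 1.23-fold difference in the opposite direction. Apart from the parental value of GSTO2, these values lie under the highest 1% of olfactory receptor genes, which begins at 7.10 on the resistant array and 6.59 on the parental array.

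GSTK1, the kappa-class enzyme of mitochondria and peroxisomes (chromosome 7), had a log2 value of 8.99 in the resistant line and 7.56 in the parental line. It was 2.69-fold higher, and 8.16% of genes above background had a difference as high or higher. GSTA4, the alpha-class enzyme known for its activity on the lipid peroxidation product 4-hydroxynonenal, stood at 4.81 in the resistant line and 4.72 in the parental line, below background on both arrays. The other alpha-class genes named by 1 symbol, GSTA1, GSTA3 and GSTA5, were also below background on both arrays, with all 4 alpha-class genes between 3.63 and 4.81.

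The microsomal members diverged. MGST1, which protects the endoplasmic reticulum and outer mitochondrial membranes as a transferase and peroxidase, had a log2 value of 11.03 in the resistant line and 9.88 in the parental line on its brighter cluster, 2.22-fold higher. Its other cluster had 7.94 in the resistant line and 7.25 in the parental line, a difference of 0.69 in the same direction but short of 2-fold, and the mean of both clusters differed by 0.92. MGST3, which has leukotriene C4 synthase and peroxidase activity, had 7.70 in the resistant line and 7.92 in the parental line on its brighter cluster, and 6.33 and 6.12 in the same order on its dimmer cluster. The MGST3 clusters thus differ in sign, by -0.22 and 0.21, and show no common direction. MGST2, a related microsomal enzyme outside the 10 members, stood at 7.75 in the resistant line and 7.78 in the parental line.

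**Figure D3:**
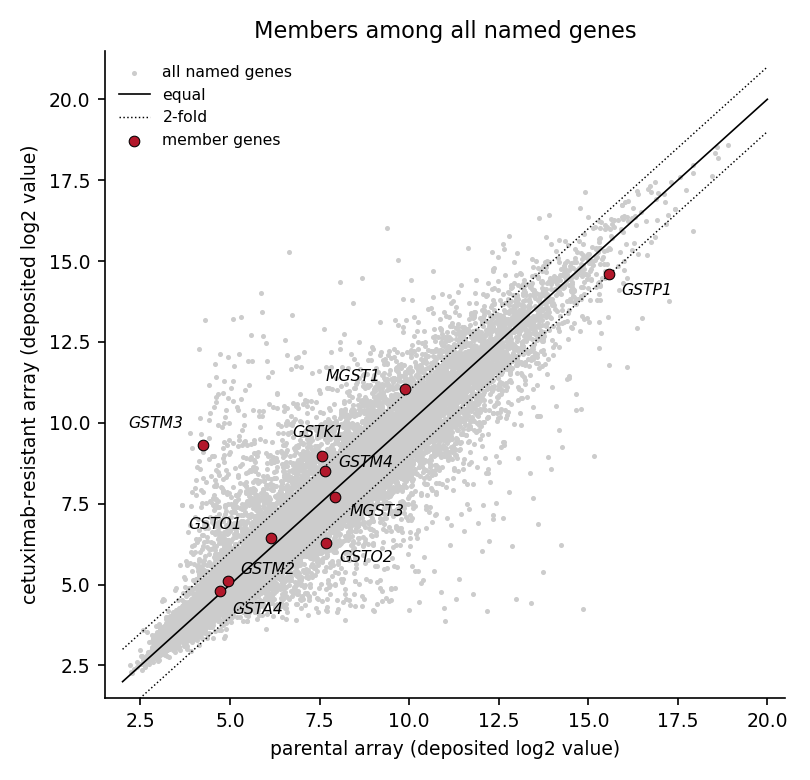
Deposited log2 values on the cetuximab-resistant array (vertical axis) against the parental array (horizontal axis) for all 22407 named genes (grey) and the 10 members (red), with the line of equal values and dotted lines at 2-fold. GSTM3 stands far above the upper 2-fold line, MGST1 and GSTK1 just above it, GSTP1 just inside the lower line and GSTO2 below it.

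Outside the 10 members, 11 further transferase genes were measured under 1 symbol, of which 5 lay above background. GSTT1, a theta-class enzyme that acts on small halogenated compounds, was the only one of these 5 with a 2-fold difference: it had a log2 value of 5.27 in the resistant line and 6.88 in the parental line, 3.05-fold lower. Its resistant value lies just above the background level of 5.03. It is also under 7.10, where the highest 1% of olfactory receptor genes begins on that array. GSTZ1, which is the maleylacetoacetate isomerase of tyrosine breakdown, had 7.36 in the resistant line and 7.57 in the parental line. GSTCD, a protein with a transferase C-terminal domain, had 9.10 in the resistant line and 9.51 in the parental line, and GSTM1 had 5.73 and 5.31 in the same order. The remaining 6 (GSTA1, GSTA3, GSTA5, GSTM5, GSTT4 and HPGDS, the sigma-class prostaglandin D synthase) were at or below background on both arrays. Over all 21 measured transferases, members included, 3 passed the 2-fold limit upwards and 2 downwards, with a median difference of 0.09 log2 units. Related membrane proteins outside the transferases included PTGES, a prostaglandin E synthase, at 10.36 in the resistant line and 9.26 in the parental line, 2.14-fold higher. ALOX5AP, which presents arachidonic acid to 5-lipoxygenase, stood at 5.25 in the resistant line and below background in the parental line, and LTC4S, named after its values were seen, was below background on both arrays.

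**Figure D4:**
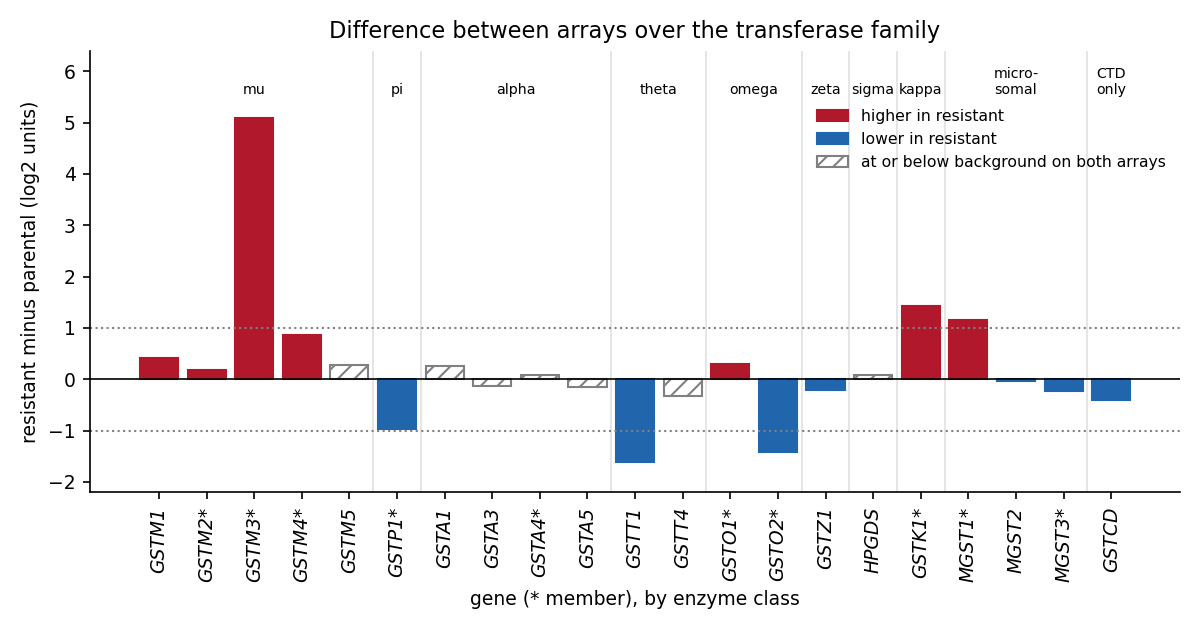
Difference between the arrays, resistant minus parental in log2 units (vertical axis), for the 21 measured transferase genes grouped by class (CTD only marks GSTCD), with members starred. Red bars are higher and blue bars lower in the resistant line, hatched bars are genes at or below background on both arrays, and dotted lines mark 2-fold; GSTM3, GSTK1 and MGST1 pass the upper line, and GSTT1 and GSTO2 pass the lower line.

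Genes along the chromosome were examined next, as the 3 named genes on either side of each member in RefSeq order. Without the members, these gave 45 distinct neighbours, of which 21 lay above background, with 6 past the 2-fold limit upwards and 4 downwards. The neighbours include the transferases GSTM1, GSTM5, GSTA1, GSTA3 and GSTA5, described above. Of these only GSTM1 lay above background, and it was short of 2-fold. Over all genes above background the shares were 13.6% upwards and 12.0% downwards, and these also stand beside every list count that follows. The lists below are counted out of all measured genes, although only genes above background could be called. Above background lay 14 of 15 glutathione redox genes, 6 of 9 of mercapturate formation, 6 of 7 of NRF2 control and 7 of 11 other conjugating enzymes. Neither the neighbours nor the lists were tested against the shares. Around the mu-class cluster, AMPD2 (AMP deaminase) had a log2 value of 9.57 in the resistant line and 7.99 in the parental line. On the other side of the cluster, CSF1 (macrophage colony-stimulating factor) had 8.74 in the resistant line and 7.01 in the parental line, and AHCYL1 had 14.54 and 13.42 in the same order. These 3 genes were thus more than 2-fold higher, with differences of 1.12 to 1.73, whereas MIR197 differed by -0.17 and GNAT2 and EPS8L3 were below background on both arrays. Beside GSTP1 on chromosome 11, NDUFV1, a complex I subunit, had 11.78 in the resistant line and 13.24 in the parental line, and PITPNM1 had 8.81 and 9.98 in the same order. Both were more than 2-fold lower, while CDK2AP2, CABP2 and NUDT8 differed by -0.65, -0.04 and -0.20. Near the omega-class genes, SFR1 had a difference of -1.14 and MIR4482, which lies between GSTO1 and GSTO2, of -1.09. TMEM139 next to GSTK1 had a difference of 1.47, close to that of GSTK1, whereas CASP2, one gene further, had the same value, 11.77, on both arrays. MIR4482 and TMEM139 were dim. MIR4482 had 5.08 in the resistant line and 6.17 in the parental line, and TMEM139 had 6.63 and 5.16 in the same order. On both arrays these values lie under the highest 1% of olfactory receptor genes. The remaining neighbours past 2-fold were STRAP near MGST1, with 1.09, and CILK1 near GSTA4, with 1.20. DNA copy number was not measured, and the part of the chromosomal position in these differences was not tested.

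Glutathione, the co-substrate of every transferase, is made from cystine, glutamate and glycine. The 12 genes of glutathione supply and turnover (the list of glutathione supply) were all above background. Of these, 4 were at least 2-fold higher and 0 lower in the resistant line, with a median difference of 0.36 (all genes, -0.01). The largest was SLC7A11, the cystine importer, at 14.40 in the resistant line and 10.06 in the parental line, 20.3-fold higher. SLC1A1, a glutamate and cysteine transporter, had 7.64 in the resistant line and 5.23 in the parental line, and CTH, which makes cysteine from cystathionine, had 7.65 and 6.12 in the same order. The rate-limiting ligase has a catalytic and a modifier subunit, and they differed: GCLM, the modifier, was 3.78-fold higher, at 14.39 in the resistant line and 12.47 in the parental line, while GCLC, the catalytic subunit, had 9.63 and 9.54 in the same order. Negative differences, all short of 2-fold, were those of GSS (-0.63), SLC3A2 (-0.60), CBS (-0.53) and CHAC2 (-0.07). These genes and GCLC were named after their values were seen.

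Among 15 genes of glutathione-dependent redox enzymes, 4 were at least 2-fold higher and 2 lower, with a median difference of 0.57. GPX8, a peroxidase of the endoplasmic reticulum, had a log2 value of 10.72 in the resistant line and 8.67 in the parental line, and GPX3, the secreted peroxidase, had 7.08 and 5.56 in the same order. PRDX6, a peroxiredoxin that is reduced through pi-class transferase, had 12.74 in the resistant line and 11.31 in the parental line, opposite in direction to GSTP1. GLRX5, a mitochondrial glutaredoxin of iron-sulfur cluster assembly, had 7.27 in the resistant line and 9.58 in the parental line. Of 9 measured genes of the thioredoxin system, the parallel thiol pathway, 3 were at least 2-fold higher and 1 lower, with a median of 0.43. The 3 were TXN, TXN2 and the reductase gene TXNRD1, with differences of 1.06 to 1.08, and the lower gene was the mitochondrial peroxiredoxin PRDX3, with -1.12.

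Pumps that export glutathione conjugates differed mostly one way. Of 6 measured, 5 were at least 2-fold higher and 0 lower, with a median of 2.40. ABCC2 was 64.9-fold higher, ABCG2 at least 7.08-fold, ABCC4 6.23-fold and ABCC3 4.44-fold. The folds of ABCC2 and ABCC4 rest on dim parental values, 6.53 and 6.44. Both lie under 6.59, where the highest 1% of olfactory receptor genes begins on the parental array. ABCC1, the pump first linked to glutathione conjugates, was named after its values were seen and differed by -0.38, at 10.21 in the resistant line and 10.59 in the parental line. Of 9 measured genes of mercapturate formation, which processes conjugates after export, 1 was higher and 1 lower, with a median of -0.16. GGT1, DPEP1, NAT8 and KYAT3 were also listed but had no cluster of their own symbol, so this list covers the pathway only in part. ANPEP, an aminopeptidase, stood at 8.35 in the resistant line and below background in the parental line, at least 9.61-fold higher, and GGT6, of the gamma-glutamyltransferase family, had 5.15 in the resistant line and 6.55 in the parental line.

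Genes of NRF2 control and other NRF2 targets give the setting of the transferases. NFE2L2, the gene of NRF2 itself, had a log2 value of 11.00 in the resistant line and 10.72 in the parental line, and was named after its values were seen. KEAP1, which marks NRF2 for degradation, was 3.53-fold higher, at 11.40 in the resistant line and 9.58 in the parental line. Of 7 measured genes in this list 2 were at least 2-fold higher, KEAP1 and NFE2L3, a factor of the same family with a difference of 7.96, and 0 were lower. Of 22 measured NRF2 targets that are no transferases, 10 were at least 2-fold higher and 1, the epoxide hydrolase gene EPHX1, was lower. The median was 0.92, and the largest differences were those of AKR1C2 (6.48), ABCC2 (6.02), AKR1B10 (5.62) and AKR1C1 (4.58). These lists overlap: of the 10 higher targets, GCLM and SLC7A11 are also in the list of glutathione supply, ABCC2 in that of the pumps and TXNRD1 in that of the thioredoxin system. GCLC is likewise in the supply list, and EPHX1 is also the lower gene among the other conjugating enzymes, so these genes are counted more than once. AKR1C genes are near-identical and their single values are uncertain. NQO1, often taken as the reference NRF2 target and named after its values were seen, stood at 14.58 in the resistant line and 14.62 in the parental line. Of 11 other conjugating enzymes measured, 1 was higher and 1 lower, with a median of 0.02; the higher gene was UGT8, which makes galactosylceramide, with a difference of 1.97.

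**Figure D5:**
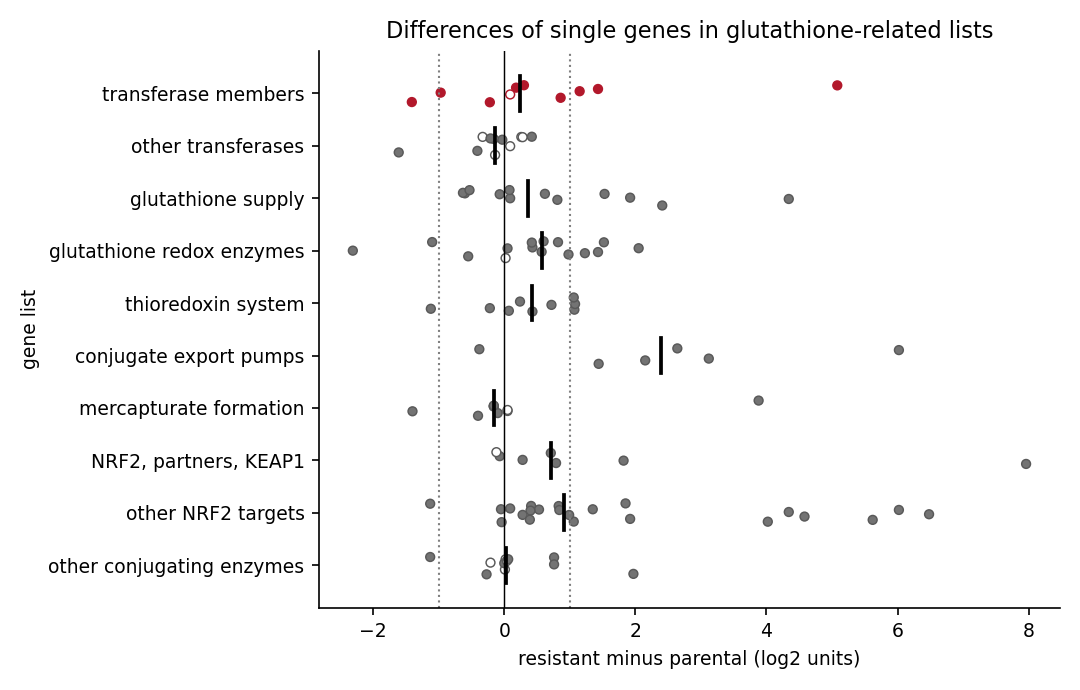
Difference of single genes, resistant minus parental in log2 units (horizontal axis), in 10 lists of glutathione-related genes (vertical axis); open circles are genes at or below background on both arrays, black bars are medians over all measured genes of a list and dotted lines mark 2-fold. The transferase members (red) have a median of 0.24. It lies above those of mercapturate formation (-0.16), the other transferases (-0.14) and the other conjugating enzymes (0.02). It lies below those of the remaining lists, which run from 0.36 for glutathione supply to 2.40 for the conjugate export pumps.

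Transferases are also known to bind stress kinases, the pi-class enzyme the JNK kinases and mu-class GSTM1 the kinase ASK1. MAP3K5, the gene of ASK1, had a log2 value of 9.33 in the resistant line and 5.32 in the parental line, 16.1-fold higher. MAPK8, the gene of JNK1, had 9.73 in the resistant line and 8.65 in the parental line, and MAPK9, that of JNK2, had 9.19 and 9.31 in the same order. MAPK10, also named after its values were seen, was below background on both arrays.

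Markers were examined as a check of the labelled cell type. All 9 measured markers of squamous or other epithelium were above background on both arrays, but KRT14 was at 5.17 in the resistant line, next to background, and at 11.39 in the parental line. KRT5 had 13.75 in the resistant line and 17.25 in the parental line, and DSP, a desmosome protein, had 12.31 and 15.31 in the same order. Over these 9 markers 1 (EPCAM) passed the 2-fold limit upwards and 4 (KRT14, KRT5, DSP and SFN) downwards in the resistant line. The squamous markers TP63, KRT6A and KRT17 were listed but had no cluster of their own symbol, so they could not be checked. Of other cell types, 2 of 5 leukocyte, 1 of 5 fibroblast and 2 of 5 endothelial markers lay above background on at least 1 array, with PTPRC, CD3E, CD14, COL1A2, DCN, VWF and KDR below it on both. In the leukocyte list 0 passed the 2-fold limit upwards and 1 downwards, in the fibroblast list 0 either way, and in the endothelial list 1 upwards and 0 downwards. The leukocyte gene was CD68, a lysosomal protein also made by epithelial lines, at 9.71 in the resistant line and 11.19 in the parental line, while ITGAM had 5.56 in the resistant line and 4.72, below background, in the parental line. The endothelial gene was PECAM1, at 5.17 in the resistant line, next to background, and 3.74 in the parental line, where it lay below it, so that its fold is at least 1.06. CDH5 had 6.98 in the resistant line and 6.14 in the parental line, and COL1A1 had 5.26 and 5.22 in the same order. Summed linear signal of the epithelial markers was 252760 in the resistant line and 403416 in the parental line (arbitrary units). It was 949 and 2439 in the same order for leukocyte markers, 106.3 and 105.6 for fibroblast markers and 215 and 138 for endothelial markers. Such sums follow their brightest probes: CD68 makes up most of the leukocyte sum, and KRT5 has the largest linear difference of the epithelial list, while KRT8 and KRT18 differed by 0.40 and 0.55. They describe those genes and not the lists as sets. The part of these marker differences in the transferase differences was not tested.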

How the data were processed

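The deposited table holds log2 expression values, made by the authors with Affymetrix Expression Console per the submitters' processing notes; their version, their algorithm and the build were not given in the sources used here. That the unit is log2 was inferred from the values, which run from 1.95 to 19.78. The sorted columns differ by at most 0.28, so their distributions nearly coincide, and a difference in total RNA would not be visible.

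Of 67528 clusters, 23781 carry 1 symbol in the platform annotation and 1543 several. Only those with 1 symbol were named, and 21497 symbols were updated through RefSeq (GRCh38.p14). Genes placed only on chromosome Y were left out. The cluster with the highest mean stood for a gene. With 1 array per group, the number of arrays limits precision and no p-value was computed. A gene counted when above background on either array and different by 2-fold in its deposited values, also where 1 of them lay under background.

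Named are all members, the other transferases, and in each other list up to 4 genes above background whose absolute difference was largest, plus neighbours and cell type markers; exceptions are marked. The members, lists and the background level were chosen with earlier results of these data known. Genes without a cluster of their own symbol were not analysed here. Calculations used Python 3.11.15, pandas 2.3.3, numpy 2.4.6 and statsmodels 0.14.6, and were tested on simulated data. The alternatives were other scalings, cluster means, background levels, filters and size limits.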

Additional observations from a re-analysis of the deposited data

How the results depend on the processing

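Across 10 alternatives, no difference of a member at or above 0.42 log2 units (the SD of the olfactory receptor differences) changed sign. Of 78 member differences under these alternatives, 1 moved by more than 0.42. It was the difference of GSTM3, 4.25 with values raised to background, which follows from its parental value below that level. Many of the 78 could not move, so this count says little about stability. The other background level and the filters change which genes count and leave the differences as they are. Cluster means could change only MGST1 and MGST3, and raising to background only GSTM2, GSTM3 and GSTA4. GSTA4, below background on both arrays, had the only sign change. The count of members at least 2-fold lower was 2 after centring and after loess correction, where GSTP1 joined GSTO2, and 2 at 1.5-fold and 0 at 3-fold. The count of higher members was 1 at 3-fold, 4 at 1.5-fold and 2 with the mean of all clusters, which takes MGST1 to 0.92, and 3 under the other alternatives. Over all genes, 3166 were higher and 3009 lower at 1.5-fold, and 955 and 731 at 3-fold. The median difference of the members ranged from 0.17 to 0.58 and was highest over members above the median brightness.

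No paired analysis was possible because each line has 1 array. Dim values limit the folds of GSTM3, GSTO1, GSTO2, GSTM2 and GSTT1, and no detection calls were used here.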

Other observations

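Some transferase signal lay in clusters that the annotation gives to several genes, which were left out of the comparisons. Both clusters shared by GSTT2 and GSTT2B, theta-class genes, had log2 values of 4.76 and 4.78 in the resistant line, below background, and 5.53 and 5.46 in the parental line. The cluster shared by GSTA2 and GSTA1 stood at 4.01 in the resistant line and 3.85 in the parental line, below background like the other alpha-class clusters.

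The cluster shared by the 9 UGT1A genes, which attach glucuronic acid to drugs and bilirubin, had a log2 value of 9.88 in the resistant line and 6.92 in the parental line, a difference of 2.96. The cluster shared by BACH1, a repressor at antioxidant response elements, and an antisense gene had 8.79 in the resistant line and 7.25 in the parental line. The cluster shared by SRXN1 (sulfiredoxin) and SCRT2 had 7.94 in the resistant line and 7.11 in the parental line. The pseudogenes GSTM2P1, GSTA7P and GSTTP2 were below background on both arrays, and the difference of GSTM2P1 was 0.45. These clusters were chosen after their values were seen.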
